A study of Rattus norvegicus with 15 samples.

Results

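Primary chondrocytes of the rat temporomandibular joint (TMJ, the jaw joint) that had received a small interfering RNA (siRNA) against Ddx5 were compared with control cells, both without mechanical stress. An siRNA is a short double-stranded RNA that guides the degradation of a matching transcript. The comparison used the 3 Ddx5 siRNA libraries and the 3 control libraries, chosen by the treatment in their labels, which makes 6 of the 15 RNA-seq libraries of the series. The control carries the genotype and treatment label "nc" and nothing more. Because another group is labelled as a control siRNA, it is read here as cells given no siRNA. Delivery of an siRNA and loss of Ddx5 are therefore combined in this comparison. The other groups of 3 libraries each were control siRNA, mechanical stress, and Ddx5 siRNA with mechanical stress. The labels do not give the dose and delivery of the siRNA, the way the stress was applied or the animals behind each library. The submitters stated an interest in what lies downstream of DDX5.

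DDX5, also called p68, is a DEAD-box RNA helicase, an enzyme that remodels RNA and RNA-protein complexes with the energy of ATP. It is known as a splicing factor, as a partner of the microRNA processing complex and as a coactivator of several transcription factors, and it acts alongside its close paralog DDX17. Double-stranded RNA in the cytosol is sensed by antiviral receptors such as MDA5, which raise interferon response genes. The integrated stress response works through the transcription factor ATF4, which induces genes for amino acid synthesis, amino acid uptake and the charging of transfer RNAs.

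Only 3 genes passed the test in the Ddx5 siRNA cells against the control, and each had its own relation to the control siRNA. Ddx5, the targeted helicase, fell to 44.1% of its control level and lay below both other unstressed groups. Cgnl1, which encodes the junction protein paracingulin, rose 1.78-fold and lay above both other groups. Slc7a5, which encodes the light chain of the large neutral amino acid transporter LAT1, rose 1.84-fold and was as high or higher after the control siRNA. Around Slc7a5, genes of amino acid supply and of transfer RNA charging were mostly higher in every Ddx5 siRNA library than in every control library, without passing the test one by one.

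Total counts ran from 14784264 to 16196096 in the 6 libraries, where 3 counts correspond to at most 0.203 CPM (counts scaled to a common library total), and 14147 of 33717 loci had enough counts to be tested. The cells carried some chondrocyte markers and little of others. Col11a1, a chain of cartilage collagen XI, lay between 1539 and 1991 CPM in these 6 libraries and Acan, the core protein of aggrecan, between 109 and 367 CPM. Col2a1, the defining cartilage collagen, lay between 0.991 and 4.49 CPM, and Sox9, the master factor of chondrocytes, between 14.7 and 27.8 CPM. Markers of macrophages and leukocytes, endothelium, skeletal muscle, adipocytes and epithelium were low. Those of synovial fibroblasts and tendon, and of Schwann cells and neurons, were not. The 15 markers of macrophages and leukocytes summed to 25.4 to 34.4 CPM in the control and 19.4 to 27.1 CPM in the Ddx5 siRNA libraries, with Ptprc, Adgre1, Tyrobp, Cd3e, Ms4a1, Cd163 and Mrc1 at 0 in all 6. The 11 matched endothelial markers summed to 21.2 to 23.98 and 21.6 to 37.7 CPM, with Cdh5, Tie1, Emcn and Cldn5 at 0. The 11 matched skeletal muscle markers summed to 22.2 to 25.1 and 23.2 to 45.0 CPM, with Myog, Tnni2, Myf5 and Pax7 at 0. The 13 markers of synovial fibroblasts and tendon were the highest of these lists, at 1184 to 1511 and 1238 to 2225 CPM, with none at 0. The 12 markers of Schwann cells and neurons summed to 423 to 607 and 616 to 668 CPM, most of it Ncam1, the 9 of adipocytes to at most 18.7 CPM and the 10 of epithelium to at most 3.44 CPM. Whether cells of these kinds had a part in any result was not tested, and in bulk RNA fewer cells of a type and less RNA per cell cannot be told apart.

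Before the results, 2 libraries have to be set apart, the first of each Ddx5 siRNA group. Over all tested genes in log2 CPM, the first Ddx5 siRNA library correlated at 0.965 to 0.969 with the other 2 Ddx5 siRNA libraries, and at 0.977 to 0.980 with the control siRNA libraries. The other 2 Ddx5 siRNA libraries correlated with each other at 0.984 and with the control libraries at 0.970 to 0.983. Ddx5 itself was as low in the first library, at 220 CPM, as in the other 2. Under mechanical stress, the first Ddx5 siRNA library correlated at 0.958 to 0.960 with the other 2 of its group, which correlated with each other at 0.984, and at 0.959 to 0.973 with the libraries of stress alone. Values of the gene lists are given with and without these libraries.

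**Figure D1:**
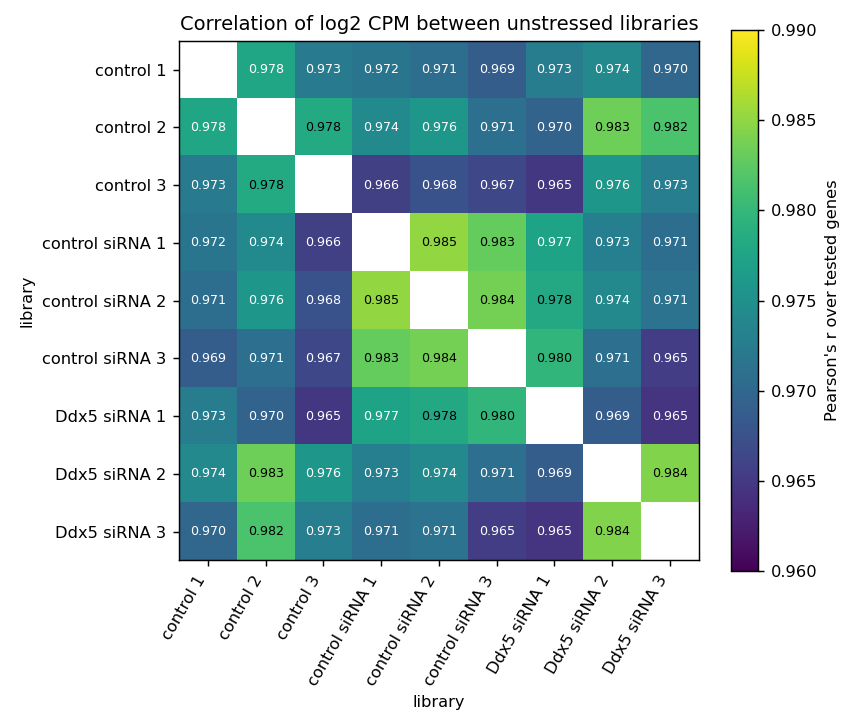
Pearson correlation of log2 CPM over the 14147 tested genes between the 9 unstressed libraries, with both axes listing the libraries and the colour scale running from 0.960 to 0.990. The row of Ddx5 siRNA 1 is brightest against the 3 control siRNA libraries (0.977 to 0.980), while Ddx5 siRNA 2 and 3 are brightest against each other (0.984) and against control 2 (0.983 and 0.982).

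The level of the siRNA's target came first. Ddx5 (ENSRNOG00000030680, at 94980928 to 94988461 on the minus strand of chromosome 10 in the deposited annotation, whose build is not stated) had 545, 510 and 485 CPM in the control libraries. The Ddx5 siRNA libraries had 220, 252 and 207 CPM. The groups were far apart, with 513 ± 30.3 CPM against 226 ± 23.0 CPM (mean ± SD, n = 3 each). Its log2 fold change was -1.18 (SE 0.13, adjusted p = 0.00171 by edgeR's quasi-likelihood test with Benjamini-Hochberg adjustment). Since the labels do not say whether replicates are separate cultures or animals, a p-value here speaks of the scatter among libraries, which may be technical. A two-sided exact permutation test on CPM gave p = 0.1, the smallest that 3 against 3 libraries allow. In the control siRNA libraries Ddx5 was at 397, 398 and 360 CPM, below every control library and above every Ddx5 siRNA library. The difference of -0.42 in log2 between the control siRNA and the control did not pass the test (adjusted p = 0.079 by edgeR), whereas that of -0.77 between the Ddx5 siRNA and the control siRNA did (adjusted p = 0.0226). Against the control siRNA, the level left was 58.8%. Ddx5 kept its call with each of the 6 libraries left out in turn, with adjusted p between 0.00662 and 0.0217, and it was the only gene of the 3 to do so.

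Cgnl1 (ENSRNOG00000054080, at 78126675 to 78233430 on the minus strand of chromosome 8) encodes paracingulin, which links tight and adherens junctions to the actin skeleton. It was at 25.1, 23.3 and 23.0 CPM in the control libraries, 40.8, 40.8 and 45.2 CPM in the Ddx5 siRNA libraries and 18.2, 20.2 and 19.1 CPM in the control siRNA libraries. Every Ddx5 siRNA library thus lay above every library of both other groups, and the control siRNA libraries were the lowest. The log2 fold change against the control was 0.83 (SE 0.11, adjusted p = 0.00885 by edgeR), and against the control siRNA it was 1.14 (adjusted p = 0.000324). The call against the control was lost without control replicate 2 (adjusted p = 0.0501), control replicate 3 (0.0672) or Ddx5 siRNA replicate 3 (0.0554), and when the model held no other libraries than the 6 compared (0.074). The list of tight and adherens junction genes held no other call: of its 23 tested members, 2 lay higher in every Ddx5 siRNA library and 1 lower, and the median log2 fold change was 0.01. Without the first Ddx5 siRNA library 6 lay higher and 3 lower, with a median of 0.02. Across all tested genes the share higher in every library was 7.05%, or 15.4% without that library, and the share lower was 7.37% or 15.6%.

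Slc7a5 (ENSRNOG00000018824, at 54693959 to 54722563 on the minus strand of chromosome 19) was at 161, 173 and 145 CPM in the control libraries, 280, 299 and 304 CPM in the Ddx5 siRNA libraries and 307, 325 and 358 CPM in the control siRNA libraries. Both siRNA groups lay wholly above the control, and the control siRNA libraries lay above those of the Ddx5 siRNA. The log2 fold change was 0.88 (SE 0.13, adjusted p = 0.0285 by edgeR) for the Ddx5 siRNA and 1.05 (adjusted p = 0.000904) for the control siRNA, both against the same control libraries. Between both siRNAs the difference was -0.17 (adjusted p = 0.568). The call for Slc7a5 was lost when control replicate 1 (adjusted p = 0.159), 2 (0.0501) or 3 (0.176) or Ddx5 siRNA replicate 2 (0.0975) or 3 (0.148) was left out, while its log2 fold change stayed between 0.82 and 0.94 in those fits.

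**Figure D2:**
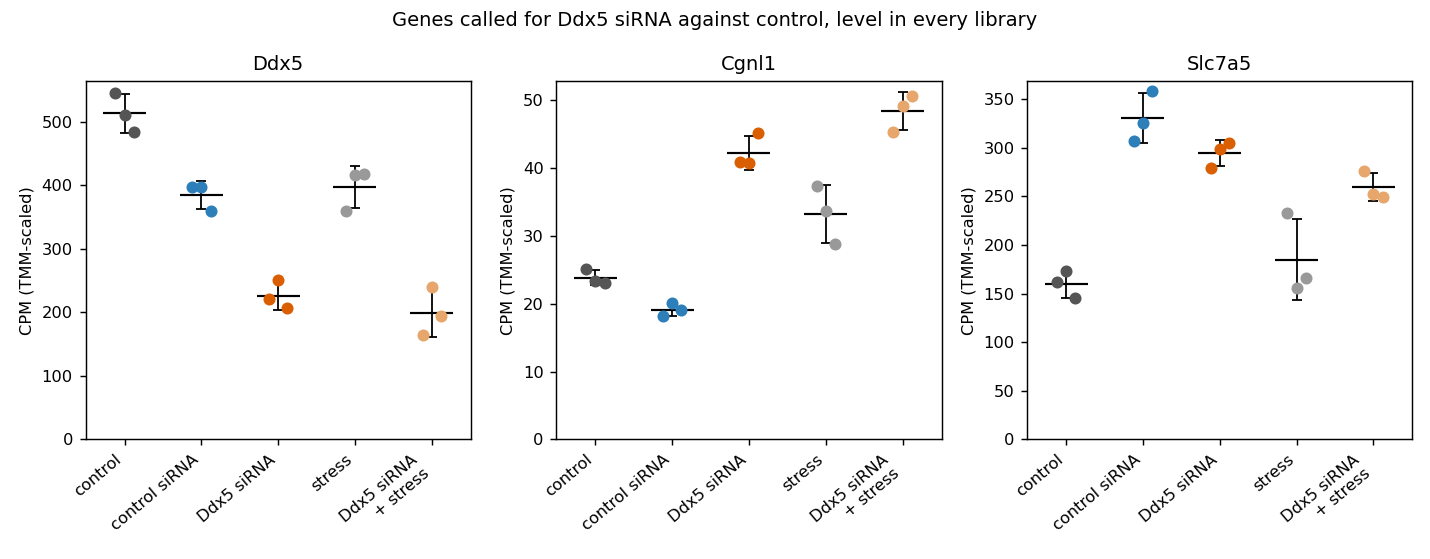
Level of Ddx5, Cgnl1 and Slc7a5 in all 15 libraries, in CPM on TMM-scaled library sizes, by group, with points for libraries and bars for the mean ± SD of 3. Among the unstressed groups, Ddx5 was lowest after its siRNA (207 to 252 CPM). Under stress with that siRNA it was at 164, 240 and 194 CPM. Cgnl1 was higher after the Ddx5 siRNA without stress (40.8 to 45.2 CPM) than in the control and control siRNA libraries, and Slc7a5 was high after both siRNAs.

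Across all expressed genes, 3 of 14147 (0.0212%) were called, 2 higher (0.0141%) and 1 lower (0.00707%), and 34 had an adjusted p under 0.1 (23 higher, 11 lower). An unadjusted p under 0.05 was found for 1327 genes (9.38%). Changes were mostly small, with 96.4% of genes within 1 log2 unit and a median of 0.01. In 997 genes (7.05%) all 3 Ddx5 siRNA libraries lay above all 3 control libraries, and in 1043 (7.37%) they lay below. Without the first Ddx5 siRNA library, where 2 libraries face 3, these shares were 15.4% and 15.6%, and 5 genes were called: the same 3 with Slc7a1 and Grin3b. For the control siRNA against the same control, 547 genes were called (3.87%), 297 of them higher (2.10%) and 250 lower (1.77%). Between both siRNAs 56 were called (0.396%), 33 higher (0.233%) and 23 lower (0.163%). The number of calls was not a fixed property of these libraries: DESeq2 called 137 genes for the Ddx5 siRNA against the control (101 higher, 0.714%, and 36 lower, 0.254%).

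Genes of amino acid supply had the highest median of the lists with at least 5 tested members. The list of ATF4 targets held 29 tested genes, of which Slc7a5 was called. All 29 had a positive log2 fold change, with a median of 0.70 against 0.01 over all genes. In 18 of the 29 every Ddx5 siRNA library lay above every control library, where 7.05% of all genes did so, and in none did every library lie below. Without the first Ddx5 siRNA library this count was 25, where 15.4% of all genes lay higher, and the median was 0.74. Against the same control libraries, the control siRNA gave a median of 1.14, with 17 of the 29 called higher, where 2.1% of all genes were. Between both siRNAs the median was -0.47, none was called, and in 17 every Ddx5 siRNA library lay below every control siRNA library, where 13.2% of all genes did.

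Amino acid transporters differed in how their groups were ordered. Slc7a1, the cationic amino acid transporter CAT1, was at 33.0, 44.6 and 31.6 CPM in the control, 49.5, 75.0 and 80.9 CPM after the Ddx5 siRNA and 63.1, 65.8 and 58.1 CPM after the control siRNA. The siRNA groups overlapped with each other. Slc7a1 was higher in each siRNA library than in any control library (log2 fold change 0.91, SE 0.17, adjusted p = 0.0745 by edgeR), and was called when the first Ddx5 siRNA library was left out (adjusted p = 0.0169). Slc7a3, a related cationic transporter that is not on the list, was near the floor in the control, at 1.48, 0.974 and 1.26 CPM. It stood at 8.46, 3.97 and 3.31 CPM after the Ddx5 siRNA, where the first library was the highest, and at no less than 12.4 CPM in all 3 control siRNA libraries. Slc6a9, the glycine transporter GLYT1, had the same spread, with 47.6 CPM in the first Ddx5 siRNA library against 21.6 and 22.5 CPM in the others and 9.28 to 15.9 CPM in the control. Slc3a2, the heavy chain that partners SLC7A5 at the membrane, overlapped between groups (288 to 330 CPM in the control, 319 to 368 CPM after the Ddx5 siRNA). Of the other transporters on the list, Slc1a5 lay higher in every Ddx5 siRNA library (log2 fold change 0.42). Slc1a4 (0.39) and Slc7a11 (0.64) overlapped with the control.

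Asns, asparagine synthetase, was at 79.8, 74.5 and 46.9 CPM in the control, 126, 127 and 114 CPM after the Ddx5 siRNA and 186, 189 and 174 CPM after the control siRNA. Its groups did not overlap, at a log2 fold change of 0.87 (SE 0.18, adjusted p = 0.101 by edgeR). The genes of serine synthesis showed the same ladder. Phgdh, its first enzyme, was at 77.6, 80.2 and 36.6 CPM in the control and 122, 125 and 120 CPM after the Ddx5 siRNA. Psat1, the next enzyme, was at 42.5, 43.5 and 13.2 CPM and at 70.6, 66.7 and 67.8 CPM. In both genes the third control library was lower than the others, and the SE of the log2 fold change was 0.27 and 0.37 for fold changes of 0.92 and 1.05. That library was also the lowest control for Asns, Mthfd2, Atf4, Atf5, Trib3 and Cars, though not for Slc7a3, Iars or Dars. The medians of the gene lists were not taken without it. Mthfd2, a mitochondrial enzyme of one-carbon metabolism, was more even, with 69.7, 67.4 and 49.0 CPM against 92.8, 102 and 95.9 CPM (log2 fold change 0.65, SE 0.12, adjusted p = 0.0745).

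Atf4 itself overlapped between groups, with 377, 306 and 225 CPM in the control and 370, 441 and 388 CPM after the Ddx5 siRNA (log2 fold change 0.40, adjusted p = 0.52 by edgeR); its activity is known to be set largely by translation, which RNA levels do not show. Atf5, a related factor and ATF4 target that is not on the list, was at 170, 167 and 108 CPM in the control. It was at 314, 296 and 249 CPM after the Ddx5 siRNA and 463, 466 and 533 CPM after the control siRNA. Trib3, a pseudokinase of this response, was at 42.2, 27.5 and 15.2 CPM and then at 74.0, 72.4 and 57.6 CPM. Ddit3, which encodes the stress factor CHOP, overlapped (29.4 to 55.0 against 46.1 to 62.2 CPM). The largest fitted change of the list, 4.11 for Aldh18a1 (SE 1.52), came from libraries at 1.85, 11.1 and 40.2 CPM against 0.950 to 1.10 CPM in the control.

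The cytosolic aminoacyl-tRNA synthetases, which join each amino acid to its transfer RNA, were a further group on the higher side. None of the 20 tested was called against the control. In 13 every Ddx5 siRNA library lay above every control library and in 1, Dars, every library lay below, where 7.05% and 7.37% of all genes did so; the median log2 fold change was 0.28. Leaving out the first Ddx5 siRNA library gave 14 and 1 with a median of 0.27, where the shares of all genes were 15.4% and 15.6%. The control siRNA gave a median of 0.62 against the same control libraries, with 13 called higher (2.1% of all genes were). Between both siRNAs the median was -0.31 with 2 called lower (0.163% of all genes were). Yars, the tyrosine enzyme, was at 77.9, 81.7 and 69.8 CPM in the control, 107, 114 and 107 CPM after the Ddx5 siRNA and 175, 153 and 140 CPM after the control siRNA. The groups were stepwise apart, and the Ddx5 siRNA libraries were lower than those of the control siRNA by 0.51 log2 (adjusted p = 0.0367 by edgeR), with 0.52 (SE 0.09, adjusted p = 0.0745) between the Ddx5 siRNA and the control. Iars, the isoleucine enzyme, was at 69.9, 80.0 and 72.4 CPM and then at 101, 99.04 and 105 CPM. Cars, the cysteine enzyme, was at 108, 123 and 93.4 CPM and then at 142, 171 and 152 CPM. Dars, the aspartate enzyme, was at 81.3, 83.0 and 82.3 CPM in the control against 58.2, 70.3 and 70.4 CPM (log2 fold change -0.31, adjusted p = 0.356). DESeq2 called 9 members of each of these lists, all of them higher, where it called 0.714% of all genes higher.

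**Figure D3:**
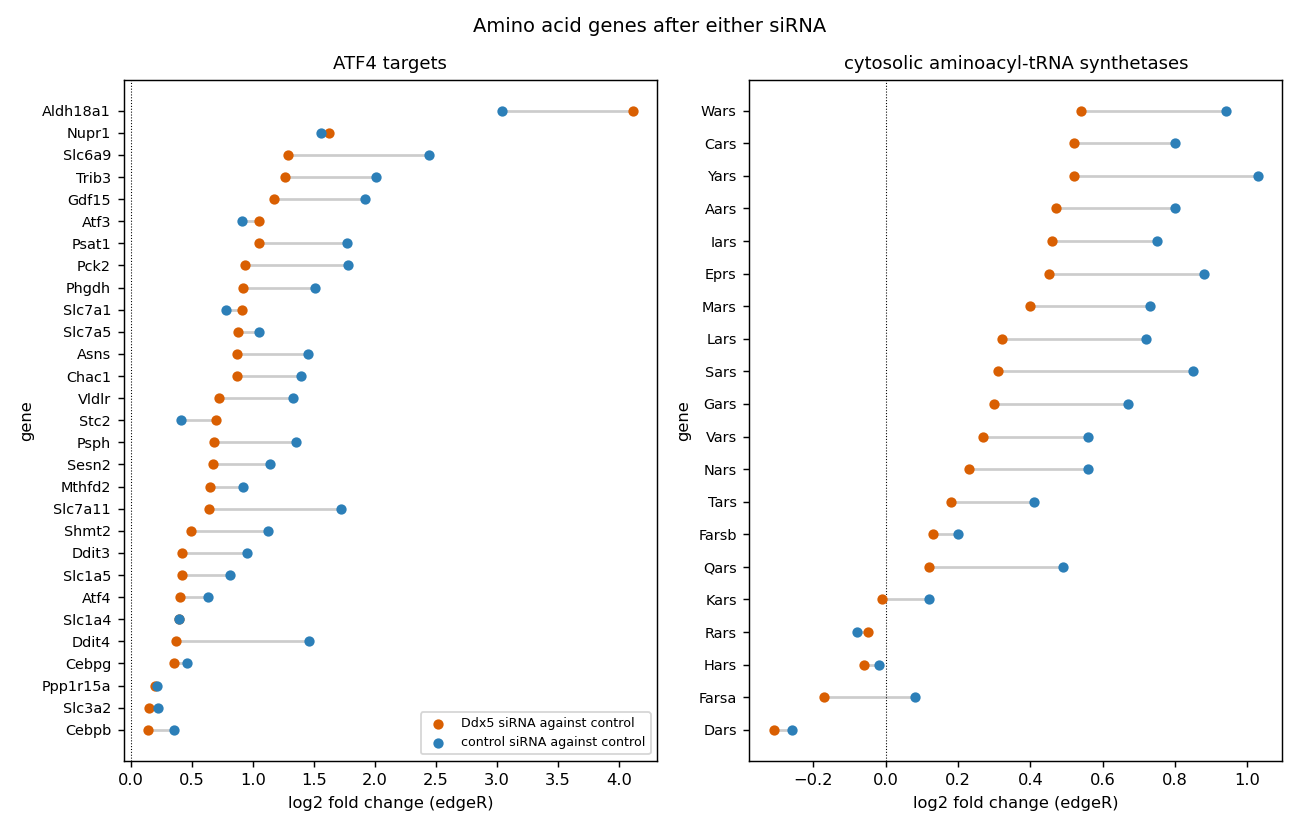
Log2 fold change (edgeR, x axis) of each tested ATF4 target (left, 29 genes) and cytosolic aminoacyl-tRNA synthetase (right, 20 genes) for the Ddx5 siRNA (orange) and the control siRNA (blue), each against the same 3 control libraries. Most genes lay right of 0 for both siRNAs, and the blue point was usually further right (medians 1.14 against 0.70 on the left, 0.62 against 0.28 on the right).

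The promoters of these genes are shown because ATF4 acts through a short element, the C/EBP-ATF response element. The letters TGATGNAAN were searched on both strands of the RefSeq promoters of the rat build GRCr8, which run from 250 bases before to 50 bases after the start of a gene. A match was found in 1044 of 27457 promoters (3.80%), in 7 of the 28 promoters found for the ATF4 targets (25.0%) and in 7 of the 17 found for the tRNA synthetases (41.2%). Both lists hold genes that ATF4 is known to induce. Higher shares are therefore built into the choice of lists and say nothing about these libraries. The promoter of the called transporter gene Slc7a5 held none, which says only that these letters are not in this window. It is printed first, followed by 4 of those with a match, named in RefSeq with the suffix 1 for the synthetases. Matches are in capitals; they describe letters and not binding.
Slc7a5, chr19:66872363-66872662, minus strand: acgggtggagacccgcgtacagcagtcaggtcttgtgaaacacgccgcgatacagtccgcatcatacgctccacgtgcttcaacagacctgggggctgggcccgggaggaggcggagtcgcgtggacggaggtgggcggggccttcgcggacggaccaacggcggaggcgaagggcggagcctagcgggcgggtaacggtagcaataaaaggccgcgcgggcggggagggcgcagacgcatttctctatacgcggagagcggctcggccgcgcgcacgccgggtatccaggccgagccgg
Slc7a1, chr12:11664238-11664537, plus strand: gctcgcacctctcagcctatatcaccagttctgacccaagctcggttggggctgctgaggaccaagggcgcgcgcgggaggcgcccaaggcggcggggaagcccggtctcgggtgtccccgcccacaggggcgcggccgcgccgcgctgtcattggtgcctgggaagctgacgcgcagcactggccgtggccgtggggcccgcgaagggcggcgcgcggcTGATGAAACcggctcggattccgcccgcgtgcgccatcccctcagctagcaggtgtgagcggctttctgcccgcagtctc
Yars1, chr5:146819913-146820212, plus strand: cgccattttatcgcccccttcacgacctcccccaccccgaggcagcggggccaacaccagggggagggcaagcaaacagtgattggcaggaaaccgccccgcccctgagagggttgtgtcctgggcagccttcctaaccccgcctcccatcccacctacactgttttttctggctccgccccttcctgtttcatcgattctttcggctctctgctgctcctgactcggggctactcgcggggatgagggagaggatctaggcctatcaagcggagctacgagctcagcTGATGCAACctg
Iars1, chr17:15193603-15193902, minus strand: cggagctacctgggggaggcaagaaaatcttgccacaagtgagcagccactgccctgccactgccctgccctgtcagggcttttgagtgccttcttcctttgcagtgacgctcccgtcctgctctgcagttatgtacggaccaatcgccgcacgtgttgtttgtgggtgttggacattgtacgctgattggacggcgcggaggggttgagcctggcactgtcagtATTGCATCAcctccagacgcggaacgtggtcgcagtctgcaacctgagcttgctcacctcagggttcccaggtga
Cars1, chr1:208225320-208225619, minus strand: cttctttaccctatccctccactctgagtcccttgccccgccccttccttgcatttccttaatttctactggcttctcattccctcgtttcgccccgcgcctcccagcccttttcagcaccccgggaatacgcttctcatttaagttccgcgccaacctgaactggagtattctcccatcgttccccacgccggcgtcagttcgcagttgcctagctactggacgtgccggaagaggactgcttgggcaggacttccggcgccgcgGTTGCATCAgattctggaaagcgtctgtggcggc
Counted from the start of the gene, the match began at -30 in Slc7a1, -25 in Iars1, 16 in Cars1 and 38 in Yars1, and it lay on the strand of the gene in Slc7a1 and Yars1 and on the other strand in Iars1 and Cars1.

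Matrix genes were the other large group on the higher side, and in several of them the first Ddx5 siRNA library was far above the others. The list of fibrillar, type VI and basement membrane collagens held 24 tested genes, none of them called. It also held matrix genes that are not collagens: Fn1, Lamb1, Lamc1, Lama4, Nid1, Postn, Sparc and Tnc. In 13 every Ddx5 siRNA library lay above every control library and in none below, against 7.05% and 7.37% of all genes, and the median log2 fold change was 0.55. Among those 13 were Fn1, Lamb1, Lamc1, Postn, Sparc and Tnc, so the count is not one of collagens alone. Without the first library the counts were 14 and 2, against 15.4% and 15.6%, and the median was 0.24. On library totals without TMM scaling, 6 in place of 13 lay apart. The TMM factors were 1.04 to 1.06 in the control and 0.965 to 1.005 after the Ddx5 siRNA. Unscaled totals therefore move every gene toward the lower side, and the share of all genes on that scale is not given. Col1a1, the main chain of collagen I, was at 29892, 36216 and 36680 CPM in the control, 68103, 46709 and 45064 CPM after the Ddx5 siRNA and 56599, 63812 and 72842 CPM after the control siRNA. It made up 3.17% to 3.82% of all counts in the control and 4.53% to 6.57% after the Ddx5 siRNA. Col5a1, which sets collagen fibril diameter, was at 965, 1446 and 1077 CPM and then at 2416, 1497 and 1601 CPM. Col4a1 and Col4a2, the basement membrane chains, were highest in the first library: Col4a1 stood at 3549 CPM there against 1760 and 1762 CPM in the others and 1155 to 1590 CPM in the control. For this list the control siRNA gave a median of 0.74 with 5 called higher, where 2.1% of all genes were.

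Among 21 tested genes of elastic fibres and matrix cross-linking, 7 lay higher in every Ddx5 siRNA library (7.05% of all genes did) and none lower, with a median of 0.34. Without the first library 11 lay higher (15.4% of all genes did) and none lower, with a median of 0.25. Fbn2, which encodes the microfibril protein fibrillin-2, was at 6.83, 13.1 and 6.94 CPM in the control, 22.5, 16.6 and 20.0 CPM after the Ddx5 siRNA and 18.3, 19.1 and 18.9 CPM after the control siRNA (log2 fold change 1.14, SE 0.26, adjusted p = 0.136 by edgeR). Both siRNA groups lay above the control. Eln, elastin, differed in that the siRNAs parted. It was at 14.4, 12.6 and 9.10 CPM in the control, 43.9, 20.0 and 20.2 CPM after the Ddx5 siRNA and 4.05, 6.603 and 10.3 CPM after the control siRNA. Its difference between both siRNAs was 2.01 log2 (adjusted p = 0.0431), and that to the control 1.22 (SE 0.36, adjusted p = 0.297). Itga3, the integrin alpha-3 chain that binds laminins, came next after the 3 called genes, at 181, 213 and 199 CPM in the control, 424, 290 and 390 CPM after the Ddx5 siRNA and 368, 326 and 281 CPM after the control siRNA (log2 fold change 0.90, SE 0.15, adjusted p = 0.0648). P3h1, a collagen prolyl hydroxylase, was at 265, 260 and 242 CPM and then at 386, 323 and 326 CPM.

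Cartilage matrix and chondrocyte genes did not share the direction of the fibrillar collagens. Of 16 tested of the 25 on the list, 1 was higher in every Ddx5 siRNA library (Col11a1) and none lower, with a median log2 fold change of -0.20. With the first library left out, 3 lay higher and none lower, with a median of -0.10. These counts compare with 7.05% and 15.4% of all genes higher. Acan was at 109, 219 and 120 CPM in the control and 168, 352 and 367 CPM after the Ddx5 siRNA, which overlap. Chpf2, which takes part in building chondroitin sulfate chains, was at 282, 347 and 339 CPM in the control, 436, 494 and 504 CPM after the Ddx5 siRNA and 364, 377 and 385 CPM after the control siRNA (log2 fold change 0.57, SE 0.11, adjusted p = 0.083 by edgeR). Every Ddx5 siRNA library was above both other groups.

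Several genes lay below both other unstressed groups, as Ddx5 did. Ykt6, a SNARE protein of vesicle fusion, was at 76.7, 88.8 and 85.4 CPM in the control, 65.5, 56.6 and 52.2 CPM after the Ddx5 siRNA and 90.0, 93.0 and 84.7 CPM after the control siRNA. It was lower by -0.53 log2 against the control (SE 0.10, adjusted p = 0.083 by edgeR) and fell by 0.62 against the control siRNA (adjusted p = 0.0251). Ciao1, part of the cytosolic iron-sulfur protein assembly machinery, was at 35.4, 27.9 and 32.2 CPM, then 20.7, 20.3 and 20.0 CPM, and 31.3, 29.5 and 29.6 CPM after the control siRNA. Its log2 fold change was -0.65 against the control (adjusted p = 0.0745) and -0.57 against the control siRNA (adjusted p = 0.0589). Klhl20, a substrate adaptor of a ubiquitin ligase, was at 46.1, 50.5 and 50.8 CPM and then at 31.5, 35.1 and 27.9 CPM, with 35.6, 44.1 and 44.6 CPM after the control siRNA (adjusted p = 0.102 against the control).

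Other genes on the lower side were as low after the control siRNA. Sfrp2, a secreted Wnt antagonist, was at 813, 503 and 498 CPM in the control, 227, 359 and 272 CPM after the Ddx5 siRNA and 179, 205 and 226 CPM after the control siRNA. Its log2 fold change was -1.08 (SE 0.19, adjusted p = 0.0745 by edgeR) for the Ddx5 siRNA and -1.57 (adjusted p = 0.000904) for the control siRNA against the same control. Gas1, a membrane protein that takes part in hedgehog signalling, was at 58.2, 59.6 and 84.8 CPM and then at 40.8, 35.5 and 31.2 CPM (adjusted p = 0.0978), with 32.9, 41.2 and 43.6 CPM after the control siRNA. Luc7l3, a splicing-related protein, was at 75.5, 62.7 and 66.02 CPM and then at 46.1, 50.7 and 47.0 CPM, close to the 46.3, 56.4 and 45.9 CPM after the control siRNA.

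DDX5's own family and splicing partners were examined as lists. Of 40 tested DEAD-box and DEAH-box helicases other than Ddx5, none was called, 3 lay higher in every Ddx5 siRNA library and 8 lower, and the median log2 fold change was -0.09. Without the first library 5 lay higher and 8 lower, with a median of -0.03. Of all genes 7.05% lay higher and 7.37% lower with all 6 libraries, and 15.4% and 15.6% without the first. Ddx17, the paralog, was among the 3 higher ones: it was at 78.9, 126 and 102 CPM in the control, 149, 143 and 178 CPM after the Ddx5 siRNA and 102, 112 and 115 CPM after the control siRNA. Every Ddx5 siRNA library was above both other groups, at a log2 fold change of 0.61 (SE 0.16, adjusted p = 0.193 by edgeR) against the control and 0.51 (adjusted p = 0.155) against the control siRNA. Ddx5 and Ddx17 share sequence, and how the counting treated reads that fit both is not stated. Eif4a2, a translation initiation helicase, was at 309, 257 and 269 CPM and then at 193, 211 and 215 CPM, with 185, 199 and 156 CPM after the control siRNA.

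The list of SR proteins and hnRNPs, factors that select splice sites, held 36 tested genes. It also held other splicing genes, among them Qk, Mbnl1, Mbnl2, Celf1, Rbfox2, Clk1, Clk4, Sf3b1, U2af1 and U2af2. In 11 of the 36, among them Qk, every Ddx5 siRNA library lay lower and in 1, Tra2b, higher, where 7.37% and 7.05% of all genes did. None was called, and the median was -0.15. On library totals 18 lay lower, a count with no share of all genes on that scale beside it. Without the first Ddx5 siRNA library 15 lay lower and 1 higher, with a median of -0.07, against 15.6% and 15.4% of all genes. Hnrnpa1 was at 365, 384 and 441 CPM in the control and 239, 314 and 338 CPM after the Ddx5 siRNA, with 306, 284 and 251 CPM after the control siRNA (log2 fold change -0.42, adjusted p = 0.362 by edgeR). The 15 tested genes of small RNA processing had a median of -0.03, with none apart in either direction, and without the first library a median of 0.04 with 1 lower.

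Innate immune genes were not higher as a group. Of 31 tested interferon response and antigen presentation genes, none was called, 1 lay higher in every Ddx5 siRNA library and 7 lower, and the median log2 fold change was -0.19, beside -0.20 after the control siRNA. Without the first library 1 lay higher and 12 lower, with a median of -0.30. Of all genes 7.05% lay higher and 7.37% lower with all 6 libraries, and 15.4% and 15.6% without the first. The 1 higher gene was Cxcl10, a chemokine that interferons induce, at 2.02, 4.29 and 2.63 CPM in the control and 5.82, 5.40 and 6.93 CPM after the Ddx5 siRNA (log2 fold change 1.02, SE 0.35, adjusted p = 0.362 by edgeR). Ifih1, which encodes the double-stranded RNA sensor MDA5, was at 5.88, 6.75 and 5.99 CPM and then at 3.30, 5.83 and 4.56 CPM. Irf7, a factor that amplifies the interferon response, was at 26.9, 26.9 and 28.9 CPM and then at 16.4, 20.9 and 23.4 CPM.

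The inflammatory and immediate early lists depended in part on the first Ddx5 siRNA library. For 29 inflammatory mediators and NF-kB targets the median was -0.03 after the Ddx5 siRNA and -0.54 after the control siRNA. After the control siRNA 7 were called lower, where 1.77% of all genes were. None of the 29 lay higher in every Ddx5 siRNA library and 3 lower, against 7.05% and 7.37% of all genes. Without the first library 2 lay higher and 10 lower, with a median of -0.24, against 15.4% and 15.6% of all genes. For 24 immediate early genes, which answer stimuli within minutes, the medians were -0.03 after the Ddx5 siRNA and -0.61 after the control siRNA. Between both siRNAs 2 were called higher after the Ddx5 siRNA, where 0.233% of all genes were. None of the 24 lay apart from the control. Without the first library 4 lay higher and 1 lower, with a median of 0.07, against 15.4% and 15.6% of all genes. The share that lay higher was thus near that of all genes. Nfkbia, the feedback inhibitor of NF-kB, was lower in every library of both siRNAs: it was at 81.9, 75.0 and 91.4 CPM in the control, 47.4, 65.8 and 56.0 CPM after the Ddx5 siRNA and 44.9, 48.4 and 44.2 CPM after the control siRNA. Zfp36, an RNA-binding protein that destabilises cytokine transcripts, showed how the first library differed, at 30.1 CPM there against 70.2 and 58.8 CPM in the others, 63.9 to 80.6 CPM in the control and 24.2 to 27.5 CPM after the control siRNA.

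The 23 tested genes of the BMP pathway had a median of -0.14, with 5 lower in every Ddx5 siRNA library, where 7.37% of all genes were, and none higher. These 5 were Id1, Id2, Id3 and Id4, which encode inhibitors of helix-loop-helix factors, and Nog, the BMP antagonist noggin. Id1 was at 56.1, 61.1 and 71.4 CPM in the control, 19.2, 49.8 and 52.0 CPM after the Ddx5 siRNA and 22.7, 20.7 and 21.1 CPM after the control siRNA. Nog was at 40.3, 35.5 and 55.5 CPM, then at 7.07, 31.5 and 35.0 CPM, and at 6.14, 6.02 and 8.47 CPM after the control siRNA. In both genes the first Ddx5 siRNA library stood at the level of the control siRNA and the other 2 stood near the control. Without that library 8 of the 23 lay lower, where 15.6% of all genes did, none lay higher, and the median was 0.01.

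Of the 39 tested ribosomal proteins none lay apart from the control in either direction (median -0.12). In every control siRNA library 34 were higher than in every control library (median 0.34), where 16.0% of all genes were. Between both siRNAs 37 were lower in every Ddx5 siRNA library than in every control siRNA library (median -0.46), where 13.2% of all genes were. No ribosomal protein gene was called in any of these comparisons. Without the first Ddx5 siRNA library, 27 of the 39 lay below the control, where 15.6% of all genes did, with a median of -0.27. For 22 endoplasmic reticulum chaperones and secretion stress genes 7 lay lower (7.37% of all genes did) and none higher, with a median of -0.12. Among the other libraries 7 lay lower and 1 higher, with a median of -0.10, against 15.6% and 15.4% of all genes. Hspa5, the chief chaperone, overlapped (1265 to 1540 against 1211 to 1295 CPM). The 33 proliferation and mitosis genes had a median of 0.29 with none apart in either direction, and without the first library 9 lay higher and none lower, with a median of 0.47, where 15.4% of all genes lay higher.

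**Figure D4:**
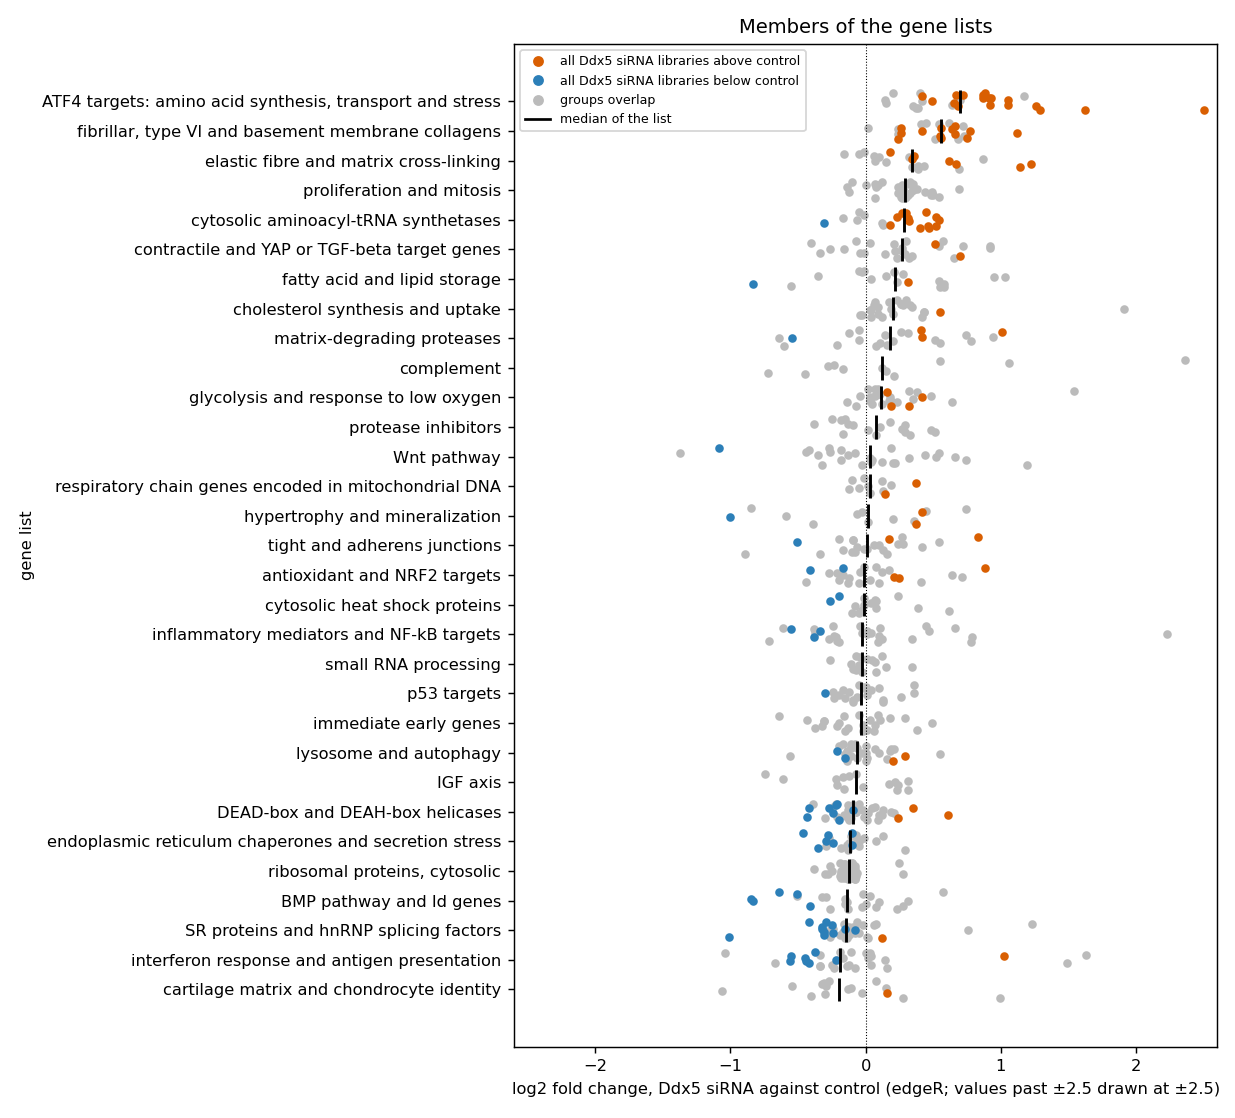
Log2 fold change (edgeR, x axis) of the tested members of the gene lists other than cell type markers for the Ddx5 siRNA against the control, with members coloured where all 3 Ddx5 siRNA libraries lay above (orange) or below (blue) all 3 control libraries and black bars for the list median. The ATF4 targets (18 of 29 orange, median 0.70) and the list of collagens, which also holds other matrix genes (13 of 24, median 0.55), stood furthest right. The interferon genes (median -0.19) lay left of 0.

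The same contrast, with against without the Ddx5 siRNA, exists under mechanical stress in 6 other libraries. There 4 genes were called (0.0283%), 1 higher (0.00707%) and 3 lower (0.0212%), which were Ddx5, Retsat and Ykt6. Without the first Ddx5 siRNA library under stress 1 gene was called, Ddx5. Ddx5 was at 360, 416 and 418 CPM under stress and 164, 240 and 194 CPM with the siRNA, a log2 fold change of -1.0 (adjusted p = 0.0143 by edgeR), or -0.87 (adjusted p = 0.0385) without that library. Cgnl1 was at 37.3, 33.6 and 28.8 CPM and then at 45.3, 49.2 and 50.7 CPM, again without overlap, at 0.54 (adjusted p = 0.0781), or 0.59 (0.1) without that library. Slc7a5 was at 233, 156 and 166 CPM and then at 276, 253 and 250 CPM, at 0.49 (adjusted p = 0.189), or 0.44 (0.188) without it. Ykt6 fell by 0.68 log2 under stress (adjusted p = 0.0376), a call lost without that library (-0.62, adjusted p = 0.0815), against the -0.53 without stress that missed the test.

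Of the 1327 genes with an unadjusted p under 0.05 without stress, 1125 (84.8%) had the same sign under stress, against 65.1% of all genes. Across the 14147 genes, which share libraries and are not independent, the 2 sets of log2 fold changes had a Pearson correlation of 0.309. Without the first library of both Ddx5 siRNA groups, 87.9% of 1299 such genes and 68.4% of all genes shared their sign, and the correlation was 0.367. Among the stress libraries, each control library correlated best with that of its own replicate number (0.971, 0.977 and 0.980 in log2 CPM). The first libraries of both Ddx5 siRNA groups correlated with each other at 0.971. Whether shared replicate numbers had a part in the shared signs was not tested. Genes higher in every Ddx5 siRNA library in both settings numbered 247, which is 24.8% of the 997 without stress and 23.1% of the 1069 under stress. Genes lower in both numbered 244 (23.4% of 1043 and 23.5% of 1038). Without both first libraries these numbers were 979 higher (45.1% of 2173 and 34.0% of 2876) and 899 lower (40.8% of 2203 and 35.1% of 2562). The ATF4 targets had a median of 0.61 under stress, with 12 of 29 higher without overlap (7.56% of all genes were), and the tRNA synthetases 0.18, with 11 of 20 higher and 2 lower (7.34% of all genes were lower). Without the first Ddx5 siRNA library under stress, the ATF4 targets had a median of 0.29, with 14 higher and 1 lower, and the tRNA synthetases 0.19, with 13 higher and 3 lower, where 20.3% of all genes lay higher and 18.1% lower. The test of the difference between both siRNA effects called no gene by edgeR, with 441 (3.12%) at an unadjusted p under 0.05, and DESeq2 called 4.

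**Figure D5:**
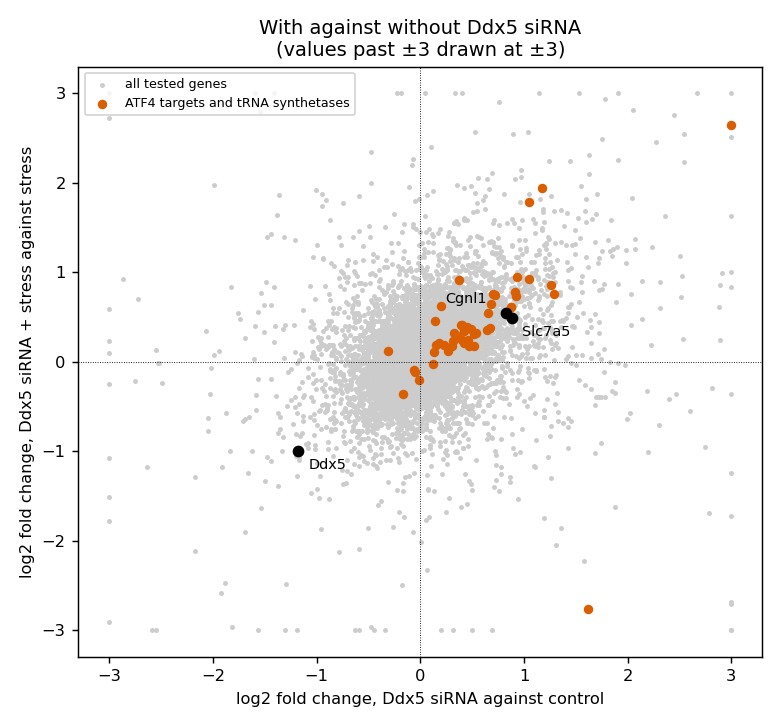
Log2 fold change (edgeR) of every tested gene for the Ddx5 siRNA against the control (x axis) and for the Ddx5 siRNA with stress against stress (y axis). The comparisons share no library, but libraries of the same replicate number resembled each other across them. Ddx5 lay at -1.18 and -1.0, and most ATF4 targets and tRNA synthetases (orange) lay above 0 on both axes.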

How the data were processed

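All tests start from the unnormalised read counts that the authors deposited for every gene and library, unpooled. The FPKM values beside them were not used here. No source used here names the aligner, counting tool, strand setting or genome build, so deposited coordinates are printed without a build. Genes with low counts were removed by filterByExpr by group, which left 14147 of 33717 loci. Libraries were scaled by TMM, and all 15 libraries entered the same edgeR 4.0.16 model with group terms, in R 4.3.3. Its robust quasi-likelihood F test was adjusted by the Benjamini-Hochberg method over all tested genes, and called means an adjusted p under 0.05. The SE of a log2 fold change was derived from its F statistic, and fold changes were not shrunk. CPM are on TMM-scaled library sizes, and intervals of n = 3 are SDs. The common biological coefficient of variation was 0.217.

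The first comparison was Ddx5 siRNA against control. Control siRNA against control, Ddx5 siRNA against control siRNA, and the Ddx5 siRNA under stress and its difference from the effect without stress were fitted in the same model. The alternatives were RLE scaling, DESeq2 1.42.0, no filter, only the libraries compared, a replicate block, and leaving out each library. Counts of list members that lay apart were also taken with RLE scaling, on library totals, and without the first Ddx5 siRNA library with or without stress, settings chosen after seeing the data. In simulated counts for the Ddx5 siRNA against control, with 14147 genes, 46.9% of 98 genes changed 2-fold and 72.5% of 102 genes changed 4-fold were recovered, with 3 false calls. The simulation held no outlying library and no change in the other groups. Every pair of replicates differed beyond sampling noise, with a chi-square of 7.62 to 65.2 per degree of freedom, and all were kept separate. Total counts of all 15 libraries ran from 14309005 to 16219775, and the limit of 3 counts covers counting error only.

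Genes and gene lists were chosen with earlier results of these data known. Named genes were Ddx5, Cgnl1 and Slc7a5, called protein-coding genes with at least 2 CPM that kept their call with each of the 6 libraries left out (Ddx5 alone), and up to 3 called or else 2 members of each list with the lowest p. All other named genes were chosen after their values were seen. Of the genes called under stress, 1 is left unnamed. Of 876 list symbols, 841 matched a gene name and 16 an older symbol. Promoter sequences are from RefSeq (GRCr8). Figures were drawn with matplotlib 3.10.9.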

Additional observations from a re-analysis of the deposited data

How the results depend on the processing

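The count of 3 genes called for the Ddx5 siRNA against the control was also 3 with RLE scaling. It was 6 with no filter on low counts, 7 in a fit of only the libraries compared and 137 with DESeq2. Leaving out each library in turn gave 1 to 5. For the control siRNA against the control (547), DESeq2 gave 1078, only the libraries compared 1376, and leaving out each library 167 to 397. For the Ddx5 siRNA against the control siRNA (56), DESeq2 gave 394, and leaving out each library 1 to 657, with 657 reached without Ddx5 siRNA replicate 1. For the Ddx5 siRNA under stress (4), RLE scaling gave 18, DESeq2 158, no filter 16, only the libraries compared 0, and leaving out each library 0 to 7. The difference between both Ddx5 siRNA effects (0) had 4 calls by DESeq2 and 0 to 2 with each library left out. The cause of these differences was not tested.

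The labels do not say whether shared replicate numbers mark a shared batch, and the main model held no replicate term. Between the Ddx5 siRNA and the control, deviations from the group means correlated at 0.26, 0.09 and 0.05 for the same number. Libraries 1 and 2 correlated best with their own number, and library 3 with another. For the control siRNA against the control (0.07, 0.09 and 0.09) every library correlated best with its own number. In log2 CPM, control 3 correlated at 0.980 with stress 3, and at 0.973 and 0.978 with the other control libraries. With a replicate block over all 15 libraries the counts of calls were 34 for the Ddx5 siRNA against the control, 1173 for the control siRNA against the control, 417 between both siRNAs and 30 under stress. With the block over only the libraries compared they were 9, 1543, 0 and 3.

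Among named genes the sign of the log2 fold change turned in 8 fits with a library left out, none of them of a called gene. Masp1 ranged from -0.18 (without Ddx5 siRNA replicate 1) to 1.44, Acta1 from -0.78 and Elf3 from -3.11 (both without the same library) to 4.07 and 4.3. Fabp4 ranged from -0.82 to 0.21 (without control replicate 1), and Sox9 from -0.14 (without Ddx5 siRNA replicate 2) to 0.29. Col2a1 ranged from -0.14 to 0.70, with -0.12 and -0.10 in the other fits that turned it. With 3 libraries per group, 46.9% of simulated 2-fold changes were recovered. The simulated counts held no outlying library and no change in the other groups, so this rate may not hold for these libraries. A gene that was not called may still differ.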

Other observations

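Some genes outside the lists stood near the threshold, and they were chosen after their values were seen. Slco2a1, the prostaglandin transporter, was at 7.54, 7.60 and 6.17 CPM in the control, 15.9, 16.4 and 18.7 CPM after the Ddx5 siRNA and 11.3, 11.3 and 13.8 CPM after the control siRNA (log2 fold change 1.26, SE 0.23, adjusted p = 0.0745 by edgeR). The 3 groups did not overlap, with the Ddx5 siRNA the highest. Osr1, a transcription factor of connective tissue and joint development, had the same order, at 12.8, 12.5 and 10.1 CPM, then 21.1, 20.2 and 18.5 CPM, and 13.8, 15.2 and 16.6 CPM after the control siRNA. Bak1, which permeabilises mitochondria in apoptosis, was at 44.6, 48.3 and 48.9 CPM in the control and 67.0, 62.6 and 68.8 CPM after the Ddx5 siRNA, against 60.2 to 63.2 CPM after the control siRNA. Its log2 fold change was 0.48 (SE 0.08, adjusted p = 0.0648).

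Lipid genes depended on the first Ddx5 siRNA library. The 25 cholesterol genes summed to 1610 to 1866 CPM in the control and 1613 to 2681 CPM after the Ddx5 siRNA, and their median log2 fold change was 0.20, or -0.11 without that library. Fasn, the fatty acid synthase, was at 366 CPM in that library, 220 and 251 CPM in the other 2 and 152 to 223 CPM in the control. Cpt1a, which brings fatty acids into mitochondria for oxidation, was lower in every Ddx5 siRNA library, at 17.97, 15.6 and 19.7 CPM against 27.4, 26.6 and 40.6 CPM (log2 fold change -0.83, SE 0.20, adjusted p = 0.166 by edgeR).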
